A study of Mus musculus with 6 samples.

Results

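The proteasome genes described here are the protein-coding genes of the count table whose symbols begin with Psma to Psmg followed by a digit, without the 3 immunoproteasome subunits Psmb8, Psmb9 and Psmb10. This rule, which used names alone, found 47 of 43346 genes. They were measured by RNA-seq in MAFs (mouse adult fibroblasts), primary cells from ear tissue of adult C57BL6/J females, in 3 control and 3 senescent samples. Control cells were sham irradiated. Senescent cells received 20 Gy of X-rays and were kept for 21 days. All cells were wild type, were grown at 3% oxygen, were given 100 nM dexamethasone for 2 hours, a treatment that synchronizes cellular clocks, and were collected 12 hours later, so a single time point was measured. The labels do not say whether replicates came from separate mice or cultures, and p-values then measure only the spread between these samples.

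The proteasome is the protease that degrades most ubiquitin-tagged proteins in the cytosol and nucleus. Its 20S core is a barrel of stacked rings: alpha subunits form the gated outer rings, and beta subunits form the inner rings, in which Psmb5, Psmb6 and Psmb7 hold the active sites. A 19S regulatory particle caps the barrel, with a base of ATPases that unfold the substrate, receptors that bind ubiquitin, and a lid in which Psmd14 removes the ubiquitin chain. Other activators can cap the core in place of 19S, and dedicated chaperones assemble both particles. The transcription factor NRF1, encoded by Nfe2l1, is known to raise proteasome genes together when proteasome activity is limiting.

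In senescent MAFs the proteasome genes moved little and in both directions. The genes of the 19S lid with a Psm name leaned higher, with Psmd8 1.84-fold higher. The small lid subunit Shfm1, which lacks a Psm name and is not among them, was lower. With all 6 libraries the genes of the 20S beta ring and of the 20S assembly chaperones were lower or not called. Among the activators, Psme3 was 1.45-fold higher while Psme1, Psme2 and Psme4 were lower. The highest Psm gene by count, the 19S scaffold subunit Psmd2, stood at 377 ± 0.947 TMM-scaled CPM (a gene's share of the library's counts, scaled between libraries) in control MAFs and at 382 ± 3.84 in senescent MAFs (SD, n = 3 each).

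Total counts lay between 50288454 and 82229553 per library. The proliferation genes Mki67 and Top2a had log2 fold changes of -5.94 and -5.20 and the cell cycle inhibitor Cdkn1a one of 2.33, which is the direction the group labels give. Of 10 fibroblast markers, 4 were higher and 5 lower in senescent cells, and their summed level was 17811 to 19901 CPM in control and 6717 to 8018 CPM in senescent libraries. All 10 chondrocyte markers tested were lower (sums of 5294 to 5931 CPM and 374 to 469 CPM), the 6 macrophage markers tested were higher (8.56 to 9.40 CPM and 19.3 to 21.8 CPM), and so were the 5 endothelial markers tested (2.55 to 2.96 CPM and 8.18 to 8.71 CPM). Of 4 keratinocyte markers tested 1 was higher and 1 lower, of 3 of skeletal muscle 2 were higher, and of 5 of Schwann cells and melanocytes 1 was higher and 3 lower. No defining marker was at 0 in every library. The part of other cell types in the differences below was not tested, and fewer cells of a type and less RNA per cell cannot be told apart in these samples.

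Senescent replicate 3 stood apart from senescent replicates 1 and 2. The median absolute log2 difference over the 46 tested proteasome genes was 0.0321 between replicates 1 and 2 but 0.166 and 0.167 between replicate 3 and each of them, and 0.0208 to 0.0533 between control replicates. The departure of replicate 3 followed the GC content of the transcript: of the 23 proteasome genes at or above the median GC content of 49.6%, 21 were lower in replicate 3 than in the mean of replicates 1 and 2, and of the 23 below it 19 were higher. Results are therefore also given without this library or with a smooth GC term in each library where these change a call.

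RefSeq promoter windows, 250 bases before and 50 after the annotated start on GRCm38.p6, were available for 39 of the 47 genes. Psma8, Psmb1, Psmb2, Psmb7, Psmc3, Psmd3, Psmd7 and Psmg2 were not matched. The 250 bases before the start are shown for 7 genes, chosen because they belong to the gene with the largest rise among the matched genes (Psmd8), the lid deubiquitinase (Psmd14), the activator PA28γ, which rose (Psme3), a catalytic subunit that fell (Psmb6), a 20S chaperone that fell (Psmg1), a lid subunit that rose (Psmd11) and the promoter that holds an AP-1 motif (Psmd9). Each run is printed 5′ to 3′ on the strand of its gene, in lower case. Capitals mark the letters of a searched motif, read on either strand.
Psmd8, chr7:29180674-29180923, minus strand: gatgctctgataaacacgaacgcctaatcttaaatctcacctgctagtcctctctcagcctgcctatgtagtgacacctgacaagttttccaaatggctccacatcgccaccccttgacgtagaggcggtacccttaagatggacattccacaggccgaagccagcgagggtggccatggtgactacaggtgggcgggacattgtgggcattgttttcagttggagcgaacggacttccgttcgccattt
Psmd14, chr2:61711444-61711693, plus strand: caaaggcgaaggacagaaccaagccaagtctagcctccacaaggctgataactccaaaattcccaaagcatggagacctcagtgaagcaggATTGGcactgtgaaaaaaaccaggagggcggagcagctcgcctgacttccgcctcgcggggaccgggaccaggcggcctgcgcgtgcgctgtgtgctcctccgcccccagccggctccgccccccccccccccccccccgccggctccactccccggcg
Psmd11, chr11:80428365-80428614, plus strand: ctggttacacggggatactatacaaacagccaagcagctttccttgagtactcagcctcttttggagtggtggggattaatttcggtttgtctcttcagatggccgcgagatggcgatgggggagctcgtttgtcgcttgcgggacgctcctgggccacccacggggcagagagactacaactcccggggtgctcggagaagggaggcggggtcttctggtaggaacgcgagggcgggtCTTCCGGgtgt
Psme3, chr11:101315963-101316212, plus strand: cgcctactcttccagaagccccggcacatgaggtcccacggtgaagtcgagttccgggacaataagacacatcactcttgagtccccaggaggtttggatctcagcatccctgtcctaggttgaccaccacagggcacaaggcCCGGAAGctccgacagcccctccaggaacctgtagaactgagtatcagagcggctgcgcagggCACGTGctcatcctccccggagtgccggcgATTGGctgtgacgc
Psmb6, chr11:70525107-70525356, plus strand: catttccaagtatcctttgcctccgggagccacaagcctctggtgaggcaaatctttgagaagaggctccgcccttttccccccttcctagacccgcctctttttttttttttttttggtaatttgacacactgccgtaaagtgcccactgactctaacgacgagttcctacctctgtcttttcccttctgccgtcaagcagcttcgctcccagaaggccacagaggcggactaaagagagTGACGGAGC
Psmd9, chr5:123227940-123228189, plus strand: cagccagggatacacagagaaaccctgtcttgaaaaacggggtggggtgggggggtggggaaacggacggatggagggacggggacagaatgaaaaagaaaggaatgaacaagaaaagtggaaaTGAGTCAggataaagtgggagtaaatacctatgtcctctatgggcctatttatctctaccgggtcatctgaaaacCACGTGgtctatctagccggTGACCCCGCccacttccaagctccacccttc
Psmg1, chr16:95990961-95991210, minus strand: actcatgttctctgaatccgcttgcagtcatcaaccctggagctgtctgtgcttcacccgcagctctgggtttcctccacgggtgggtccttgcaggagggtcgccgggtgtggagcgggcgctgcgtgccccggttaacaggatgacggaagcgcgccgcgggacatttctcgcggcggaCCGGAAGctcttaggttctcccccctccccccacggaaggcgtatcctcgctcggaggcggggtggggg
The Psmd8 run holds none of the searched motifs, and its last 28 bases lie in an exon of a longer annotated transcript. The capitals are NF-Y letters in Psmd14, ETS letters in Psmd11 and Psmg1, and an antioxidant response element in Psmb6. In Psme3 they are ETS, E-box and NF-Y letters in that order, and in Psmd9 AP-1, E-box and antioxidant response element letters.

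The searched letters were CCGGAAG (the site of ETS factors), CCAAT (NF-Y), CACGTG (the E-box of BMAL1, CLOCK and other factors), TGACTCA (AP-1), and TGACNNNGC and TGAGNNNGC (antioxidant response elements, bound by NRF1 and NRF2). A single stretch can match an AP-1 and an antioxidant response motif at once. Each gene was counted once, if any of its windows held the letters. ETS letters were found for 15 of the 39 genes (38.46%). The share was 9.928% of all 27025 genes with a window and 17.98% of the 11384 tested genes with a window. Of these 15 genes 7 were higher in senescent cells, 4 lower and 4 not called. These and the counts below are to be read beside 15 higher and 11 lower among the 39 genes. Among all genes tested 36.2% were higher and 34.1% lower. An antioxidant response element of either form was found for 17 genes (43.59%, against 30.76% and 35.29%), of which 5 were higher and 7 lower. NF-Y letters were found for 14 genes (35.9%, against 41.06% and 42.41%), of which 6 were higher, 2 lower and 6 not called. The E-box was found for 3 genes, Psma4, Psmd9 and Psme3 (7.692%, against 8.093% and 11.2%). AP-1 letters were found for Psmd9 alone (2.564%, against 5.946% and 4.937%). A match of letters is a description and not a bound site.

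Of the 47 genes, 46 had enough counts to be tested. At an adjusted p under 0.05 in edgeR's quasi-likelihood test, 16 were higher in senescent cells, 14 lower and 16 not called. Among all 17589 genes tested 70.3% were called, 36.2% higher and 34.1% lower, so the share of proteasome genes called was close to that of all genes. The shares of 36.2% and 34.1% are also the background of the counts by role group below. The 3 senescent values lay wholly above the 3 control values for 19 genes and wholly below them for 16, against 38.4% and 37% of all genes (75.3% together). Where the proteasome genes differed from the background was in size. Their median absolute log2 fold change was 0.302, against 0.576 over all genes tested, and 37 of 46 (80.4%) lay under 0.5, against 44.9%. Only 1, Psmc3ip, passed an unadjusted p under 0.05 with more than 2-fold change, against 30.1% of all genes. The median log2 fold change was -0.02, beside 0.01 for all genes. These are descriptions of a named list, with no test of the list. All genes tested were not matched to the proteasome genes for expression level, and the part of level in the difference in size was not tested.

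**Figure D1:**
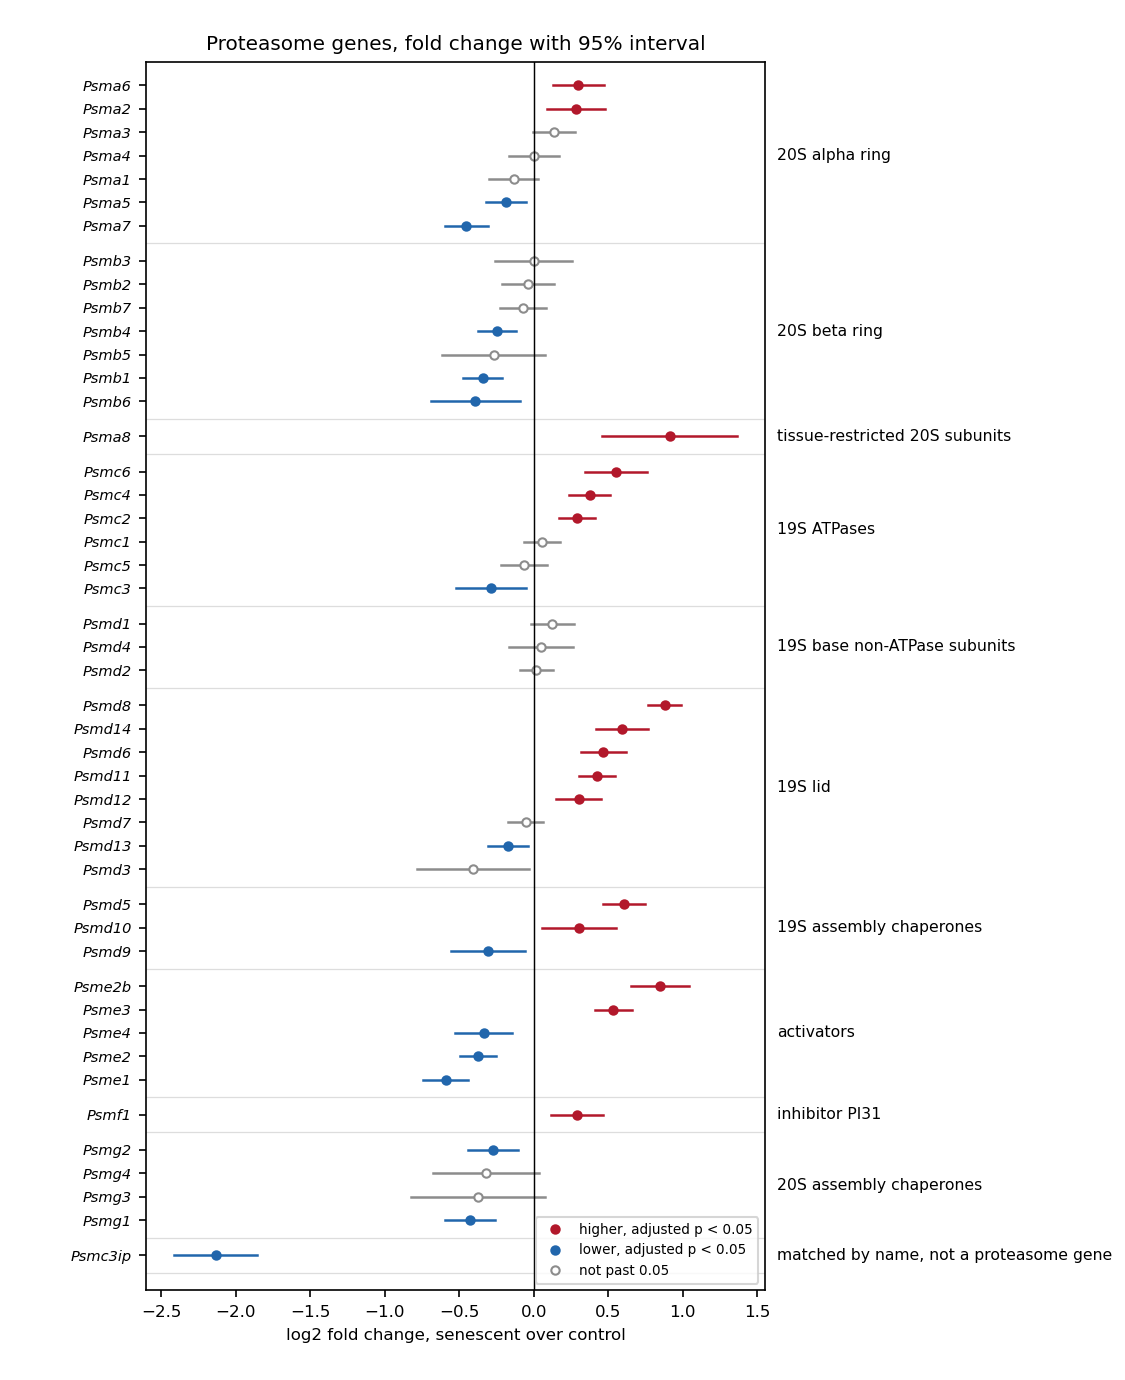
Log2 fold change, senescent over control, for each tested proteasome gene in its role group (horizontal axis), with the 95% confidence interval of edgeR's quasi-likelihood fit as a bar. Filled points passed an adjusted p of 0.05, and most points lie between -0.5 and 0.6, with Psmc3ip at -2.13 far to the left.

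The alpha ring split evenly. Of its 7 genes 2 were higher, 2 lower and 3 not called, with a median log2 fold change of 0.00. Psma6 rose from 113, 111 and 112 CPM in the control libraries to 137, 126 and 152 CPM in the senescent libraries (log2 fold change 0.30 ± 0.07 SE, adjusted p = 0.00722). Psma7 fell from 134, 139 and 136 CPM to 103, 104 and 92.6 CPM (log2 fold change -0.45 ± 0.06 SE, adjusted p = 3.47e-04), and the log2 fold change was -0.20 with the GC term. In neither gene did the groups overlap. Psma2 was higher (log2 fold change 0.29, adjusted p = 0.0163) and Psma5 lower (-0.18, adjusted p = 0.0216), while Psma1, Psma3 and Psma4 lay between -0.13 and 0.13 and did not pass. With the GC term the ring had 1 gene higher (Psma6) and 4 lower, and the log2 fold change of Psma2 was 0.04 (adjusted p = 0.29). Without senescent replicate 3 it had 3 genes higher and 3 lower, since Psma3 (0.09, adjusted p = 0.0306) and Psma1 (-0.18, adjusted p = 0.00231) were then called.

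In the beta ring no gene was higher and 3 of 7 were lower, with a median log2 fold change of -0.24. Without senescent replicate 3 the ring had 1 gene higher (Psmb3) and 4 lower, with a median of -0.13. Psmb6, which cuts after acidic residues, was at 94.5, 105 and 106 CPM in control and at 86.4, 85.3 and 61.4 CPM in senescent cells (log2 fold change -0.39 ± 0.13 SE, adjusted p = 0.027). Senescent replicate 3 was the lowest of the 6 libraries, and the log2 fold change was -0.24 without it. With the GC term it was -0.33 and no longer called (adjusted p = 0.0638). Psmb1 and Psmb4, which are not catalytic, were lower with log2 fold changes of -0.34 (adjusted p = 8.05e-04) and -0.24 (adjusted p = 0.00413), the latter -0.15 with the GC term.

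The other catalytic subunits were not called. Psmb5, the chymotrypsin-like subunit, was at 70.7, 77.3 and 76.2 CPM in control and at 67.0, 72.4 and 46.8 CPM in senescent cells (log2 fold change -0.27, 95% interval -0.61 to 0.08, adjusted p = 0.141). Replicate 3 again was far below the other senescent libraries, which overlapped the controls. Psmb7, the trypsin-like subunit, was at 130.5, 129 and 131 CPM and at 121, 117 and 134 CPM (log2 fold change -0.07, 95% interval -0.22 to 0.08, adjusted p = 0.359). Its groups overlapped through replicate 3, and it was called lower both without that library (log2 fold change -0.13, adjusted p = 0.00588) and with the GC term (-0.28, adjusted p = 2.35e-05). Annotated exons of Nek6 on the other strand share 33.4% of the length of Psmb7, and Nek6 had a mean count of 5691.7. Psmb3, a structural subunit, had values of 76.4, 83.2 and 87.8 CPM and of 89.1, 90.0 and 68.5 CPM (log2 fold change 0.00, adjusted p = 0.995), and without senescent replicate 3 it was called higher (0.13, adjusted p = 0.0309). Psmb2 was not called either (-0.04).

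A pair of 20S genes is normally restricted to other tissues. Psma8, the alpha subunit of the testis, had 24, 39 and 21 counts in control and 57, 79 and 81 counts in senescent libraries (log2 fold change 0.91 ± 0.19 SE, adjusted p = 0.00341). Its groups did not overlap, but its level was 0.521 CPM ± 0.117 and 0.995 CPM ± 0.034 (SD, n = 3), beside 136 CPM for Psma7 in control cells. Psmb11, the beta subunit of the thymus cortex, had 0 to 2 counts per library and was not tested.

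The ATPases of the 19S base moved in both directions. Of 6 genes 3 were higher and 1 lower (median log2 fold change 0.17). Psmc6 rose from 119, 115 and 114 CPM to 159.7, 156 and 195 CPM (log2 fold change 0.55 ± 0.09 SE, adjusted p = 8.30e-04). All senescent values were above all control values, with replicate 3 the highest, and the log2 fold change was 0.45 without that library and 0.27 with the GC term. Psmc3 was at 166, 177 and 177 CPM in control and at 155, 152 and 119 CPM in senescent cells (log2 fold change -0.29 ± 0.10 SE, adjusted p = 0.0348), and it was -0.17 without senescent replicate 3 and -0.11 with the GC term. Psmc4 (0.38, adjusted p = 6.10e-04) and Psmc2 (0.29, adjusted p = 0.00117) were higher, the second of them 0.10 and not called with the GC term (adjusted p = 0.161). Psmc1 and Psmc5 had log2 fold changes of 0.05 and -0.06 and were not called.

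None of the 3 other base subunits with a Psm name was called. Psmd2, to which ubiquitin-like domains of shuttle proteins dock, was at 376, 378 and 377 CPM and at 386, 381 and 378 CPM (log2 fold change 0.02, 95% interval -0.09 to 0.13). Psmd1, its scaffold partner, was at 224 CPM in each control library and at 235, 234 and 264 CPM in senescent cells (log2 fold change 0.13, 95% interval -0.02 to 0.27, adjusted p = 0.108). Psmd4, a receptor of ubiquitin chains, was at 96.1, 103 and 99.3 CPM and at 111, 109.7 and 88.5 CPM (log2 fold change 0.05, 95% interval -0.17 to 0.26). The groups of Psmd4 overlapped through replicate 3 alone, and it was called higher without that library (log2 fold change 0.15, adjusted p = 0.00238) and with the GC term (0.16, adjusted p = 0.0083).

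Of the 8 lid genes with a Psm name 5 were higher and 1 lower. The 3 senescent values lay wholly above control for 5 and wholly below for 3, beside 38.4% and 37% of all genes. The median log2 fold change of the 8 genes was 0.36, and 0.23 with the GC term. The lid subunit Shfm1, named after its values were seen, is not among the 8. Its log2 fold change was -0.60, and -0.76 with the GC term. Psmd8, whose product joins the lid last and lets it attach to the base, rose from 167, 169.7 and 171 CPM to 312, 309.8 and 312 CPM (log2 fold change 0.88 ± 0.05 SE, fold 1.84, adjusted p = 1.84e-06). Its replicates were close within each group, the gap between groups was many times their spread, and replicate 3 did not stand apart. The gene lies at chr7:29174188-29180701 (mm10), and its log2 fold change was 0.99 with the GC term. Psmd14, the deubiquitinase, at chr2:61711694-61800376, rose from 113, 109.6 and 111 CPM to 161, 156 and 185 CPM (log2 fold change 0.59 ± 0.07 SE, adjusted p = 2.02e-04, and 0.44 with the GC term). Psmd6, Psmd11 and Psmd12 were higher by 0.47, 0.42 and 0.30 on the log2 scale, and Psmd11 was 0.20 with the GC term (adjusted p = 0.023). Psmd3 ran the other way, at 101, 111 and 115 CPM in control and 89.8, 96.3 and 60.3 CPM in senescent cells (log2 fold change -0.41, 95% interval -0.78 to -0.03, adjusted p = 0.0512). Its groups did not overlap, replicate 3 was 35.2% below the mean of the other senescent libraries, and without it Psmd3 was called lower (-0.22, adjusted p = 0.00194). Psmd13 was lower (-0.17, adjusted p = 0.0284; -0.03 and not called with the GC term), and Psmd7 was not called (-0.05).

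**Figure D2:**
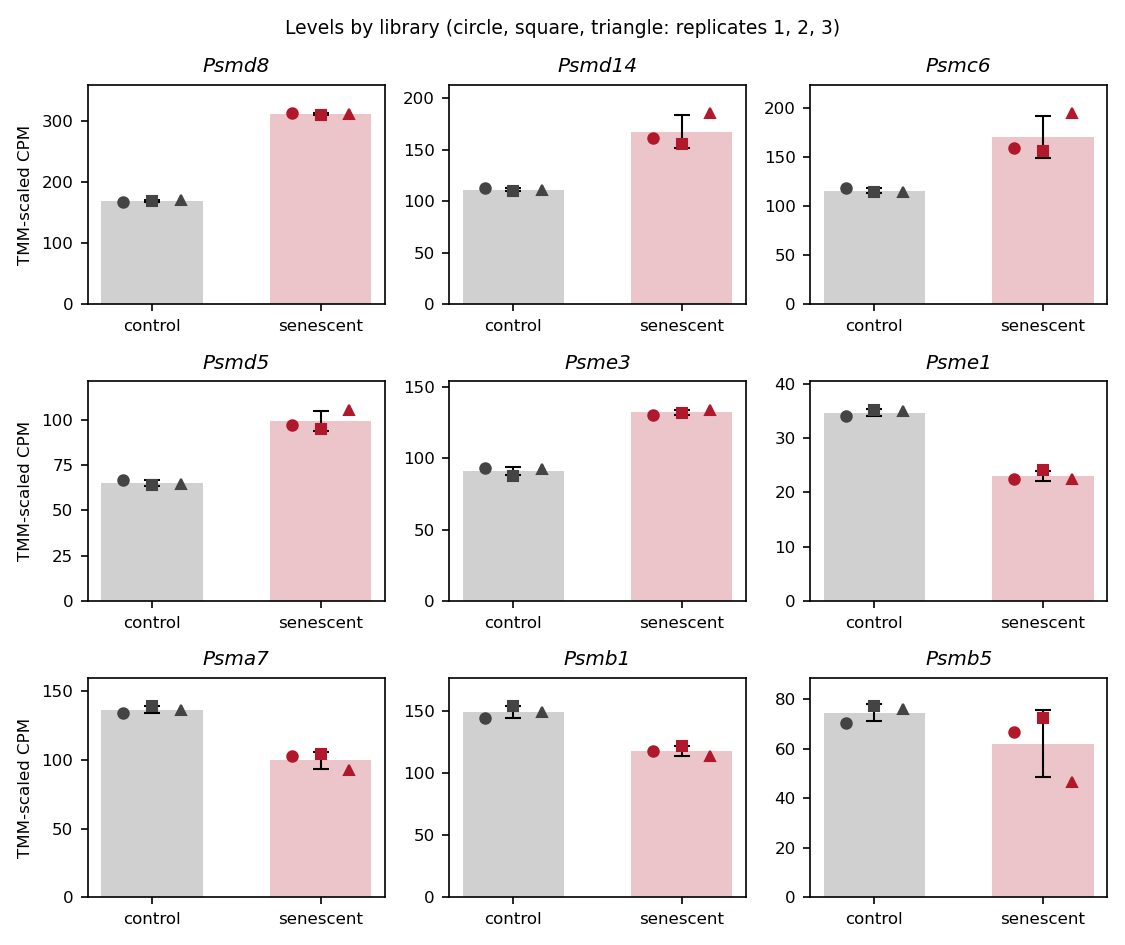
TMM-scaled CPM (vertical axis) of 9 proteasome genes in the control and senescent groups, with bars for the mean of 3 libraries, error bars for the SD, and circles, squares and triangles for replicates 1, 2 and 3. Psmd8 and Psme3 separated the groups with little spread, and for Psmb5 senescent replicate 3 (46.8 CPM) lay well below the other libraries.

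Of the 3 chaperones of 19S assembly 2 were higher and 1 lower, and with the GC term 1 was higher and 1 lower. Psmd5, a chaperone of ATPase assembly, rose from 66.8, 64.2 and 64.3 CPM to 97.3, 95.01 and 106 CPM (log2 fold change 0.61 ± 0.06 SE, adjusted p = 5.24e-05). Psmd10 was higher (0.30, adjusted p = 0.035), and it was 0.20 without senescent replicate 3 and 0.13 with the GC term (adjusted p = 0.0524). Psmd9 fell from 26.7, 29.8 and 31.0 CPM to 24.7, 25.8 and 20.3 CPM (log2 fold change -0.31 ± 0.11 SE, adjusted p = 0.0327). It was -0.20 without senescent replicate 3. In none of the 3 did the groups overlap. Annotated exons of Gm26745 on the other strand share 40.5% of the length of Psmd9, with a mean count of 0.0.

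Of the 4 chaperones that build the alpha ring, 2 were lower and none higher, with a median log2 fold change of -0.35. Psmg1 fell from 27.3, 25.7 and 24.4 CPM to 20.0, 18.8 and 18.7 CPM (log2 fold change -0.43 ± 0.07 SE, adjusted p = 0.00101). Psmg2, its partner, fell from 29.3, 29.6 and 28.9 CPM to 25.9, 24.3 and 22.4 CPM (log2 fold change -0.27 ± 0.07 SE, adjusted p = 0.0105). Both separated the groups. Psmg3 and Psmg4 had log2 fold changes of -0.37 (95% interval -0.82 to 0.07) and -0.32 (-0.68 to 0.04) and were not called. Without senescent replicate 3 they were at -0.16 and -0.16, and the median of the 4 genes was -0.19. With the GC term the median was -0.34.

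All 5 activator genes were called, 2 higher and 3 lower. Psme3 encodes PA28γ, a nuclear cap that works without ubiquitin, at chr11:101316213-101323537. It rose from 92.9, 87.9 and 92.7 CPM to 131, 132 and 134 CPM (log2 fold change 0.54 ± 0.05 SE, adjusted p = 4.84e-05), and the value was 0.54 with the GC term too. Psme1 and Psme2 encode the alpha and beta subunits of the cytosolic PA28 cap, known as interferon-induced genes of antigen processing. Psme1 fell from 34.0, 35.3 and 35.0 CPM to 22.6, 24.2 and 22.5 CPM (log2 fold change -0.59 ± 0.06 SE, adjusted p = 7.92e-05). Psme2 fell from 57.1, 58.3 and 56.4 CPM to 43.7, 44.6 and 44.1 CPM (log2 fold change -0.38 ± 0.05 SE, adjusted p = 3.41e-04). The PA28 genes therefore moved apart, with no overlap between groups in any of the 3. With the GC term the log2 fold changes of Psme1 and Psme2 were smaller, at -0.37 and -0.26, and both were still called.

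Psme4, which encodes the nuclear activator PA200, fell from 168, 158 and 155 CPM to 121, 118 and 142 CPM (log2 fold change -0.34 ± 0.08 SE, adjusted p = 0.00715). Replicate 3 was the highest of its senescent libraries, 19.2% above the mean of the others, and the log2 fold change was -0.42 without it. Psme2b, a gene nearly identical to Psme2, rose from 5.41, 5.64 and 5.09 CPM to 9.62, 9.41 and 10.1 CPM (log2 fold change 0.85 ± 0.08 SE, adjusted p = 4.87e-05). How reads were split between Psme2 and Psme2b is not given in the sources used here, so both values are uncertain. Psmf1, the inhibitor PI31, was at 31.2, 29.3 and 31.5 CPM and at 39.1, 39.1 and 34.4 CPM (log2 fold change 0.29 ± 0.07 SE, adjusted p = 0.00829).

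The name rule also takes in Psmc3ip, which is not a proteasome gene: its product is a cofactor of meiotic recombinases. It fell from 6.12, 6.43 and 6.60 CPM to 1.498, 1.62 and 1.26 CPM (log2 fold change -2.13 ± 0.12 SE, adjusted p = 2.17e-06). Annotated exons of Mlx on the other strand, with a mean count of 1947.0, share 21.2% of the length of Psmc3ip. Without it, 45 genes were tested, of which 16 were higher and 13 lower (median log2 fold change 0.00) and none above 2-fold.

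Subunits of a ring or particle enter the assembled complex in equal numbers, and their transcript levels were spread widely. Levels per length are given as RPKM, the scaled CPM divided by the deposited gene length in kilobases. The 31 standard subunits with a Psm name ranged in control cells from 14.4 for Psmd11 to 152 for Psma2, a 10.5-fold range. In senescent cells they ranged from 16.5 for Psmd3 to 202 for Psmd8, a 12.2-fold range. In control cells Psma2 was followed by Psmb1 (144 RPKM ± 4.39), Psmd8 (109.9 ± 1.01) and Psmb7 (107 ± 0.810), and in senescent cells Psmd8 (202 ± 0.890) came before Psma2 (185 ± 21.6) and Psmb1 (113 ± 3.93; SD, n = 3 in each case). In senescent cells the values of Psmb1, Psma6 (112 ± 10.4), Psmc6 (109 ± 13.7) and Psmc1 (109 ± 3.33) did not differ beyond their spread. These levels rest on the deposited lengths and take no account of which isoforms were expressed.

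Averaged by sub-complex, the 14 genes of the 20S core were at 77.6, 79.1 and 78.9 RPKM in control and 74.9, 74.6 and 75.9 RPKM in senescent libraries. The 17 genes of the 19S particle with a Psm name were at 53.9, 54.4 and 54.1 RPKM and at 64.5, 63.6 and 64.6 RPKM. The 19S subunits Shfm1 and Adrm1, without a Psm name, are left out of the lid and 19S means and of the ratios. The ratio of 19S to 20S mean level was 0.690 ± 0.005 in control and 0.855 ± 0.005 in senescent cells (SD, n = 3), with no overlap, and senescent replicate 3 (0.852) lay with replicate 2 (0.853) and replicate 1 (0.861). Psmd8 alone made up part of this: without it, a choice made after seeing the values, the ratio was 0.646 ± 0.005 and 0.741 ± 0.005. Within the core, the alpha mean was 71.2 RPKM ± 0.824 and 75.9 RPKM ± 6.04, and the beta mean was 85.8 RPKM ± 2.41 and 74.4 RPKM ± 4.72. Senescent replicate 3 had the highest alpha mean (82.9 RPKM) and the lowest beta mean (68.9 RPKM) of the 6 libraries. The median GC content was 45.0% over alpha and 51.0% over beta transcripts. The lid mean over 8 genes rose from 46.6 RPKM ± 0.285 to 62.2 RPKM ± 0.835. A large part of this rise was Psmd8, which by itself went from 109.9 to 202 RPKM. The mean of the 20S assembly chaperones went from 14.7 RPKM ± 0.216 to 11.6 RPKM ± 0.938.

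**Figure D3:**
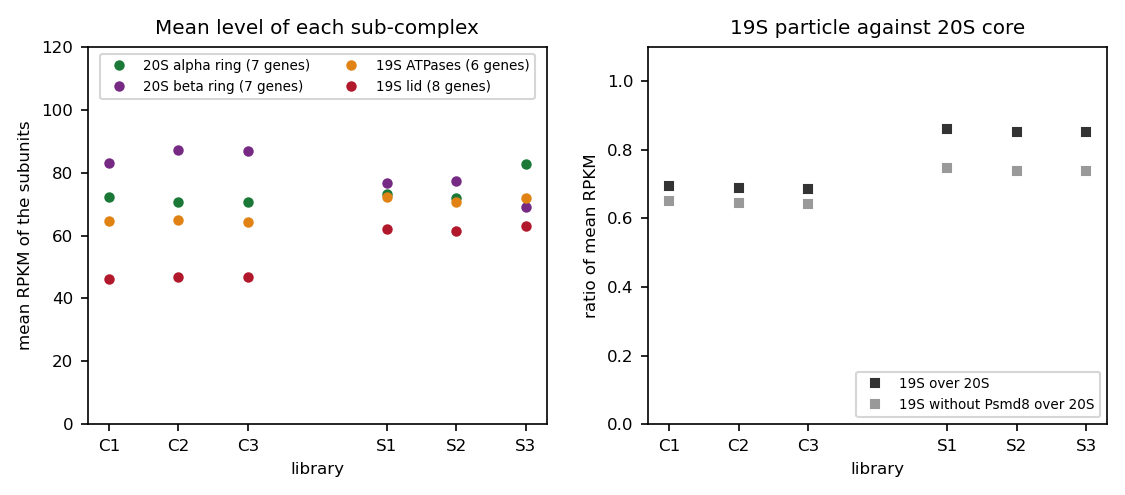
Mean RPKM of the subunits of the alpha ring, beta ring, ATPases and lid in each library (left), and the ratio of the 19S mean to the 20S mean with and without Psmd8 (right). The ratio with Psmd8 was 0.686 to 0.695 in control libraries and 0.852 to 0.861 in senescent libraries. The lid mean on the left includes Psmd8, and the lid and 19S means leave out the subunits without a Psm name.

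By gene, 8 of 17 genes of the 19S particle with a Psm name were higher and 2 lower. Of the 14 genes of the 20S core 2 were higher and 5 lower. Of all genes tested 36.2% were higher and 34.1% lower. With the GC term the counts were 8 higher and 1 lower for 19S and 1 higher and 7 lower for 20S, beside 40% and 37.8% of all genes. Without senescent replicate 3 they were 9 and 3 for 19S and 4 and 7 for 20S. Over all 46 genes 19 were then higher and 17 lower, where 77% of all genes were called (39.7% higher and 37.4% lower).

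Several of the calls lay near the threshold. Scaling by library size alone, and a filter on a minimum of 10 counts in each library, each lost the calls of Psma5, Psmb6, Psmc3, Psmd9 and Psmd13 and added Psma3 and Psmd1. With 1 library left out, Psmc3 lost its call without control replicate 1, 2 or 3 (adjusted p up to 0.0992 in edgeR), Psmb6 without control replicate 2 or 3 (up to 0.0835), and Psmd9 without control replicate 2 or 3 or senescent replicate 1 (up to 0.115). Psma5 lost it without control replicate 1 or 2 or senescent replicate 1 or 2, Psmd13 without any 1 of the control replicates or senescent replicate 2, Psmd10 without control replicate 2 or 3, and Psma2 without control replicate 1. Psmd3, not called with all libraries, was called lower without senescent replicate 2 or 3, by DESeq2 and by edgeR's exact test.

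Fold changes of the 46 genes followed GC content, with a Spearman correlation of -0.55 across genes, against -0.22 over 12869 genes of at least 100 counts. Genes are not independent replicates, and these values share their libraries. Of the 23 genes at or above the median GC content 3 were higher and 10 lower in senescent cells, and of the 23 below it 13 were higher and 4 lower. Without senescent replicate 3 the correlation was -0.44. With the GC term 29 genes were called, 14 higher and 15 lower, against 77.8% of all genes (40% higher and 37.8% lower), and 25 of these were called in the same direction without the term. Psma2, Psmb6, Psmc2, Psmd10 and Psmd13 were no longer called, and Psma1, Psma4, Psmb7 and Psmd4 were.

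**Figure D4:**
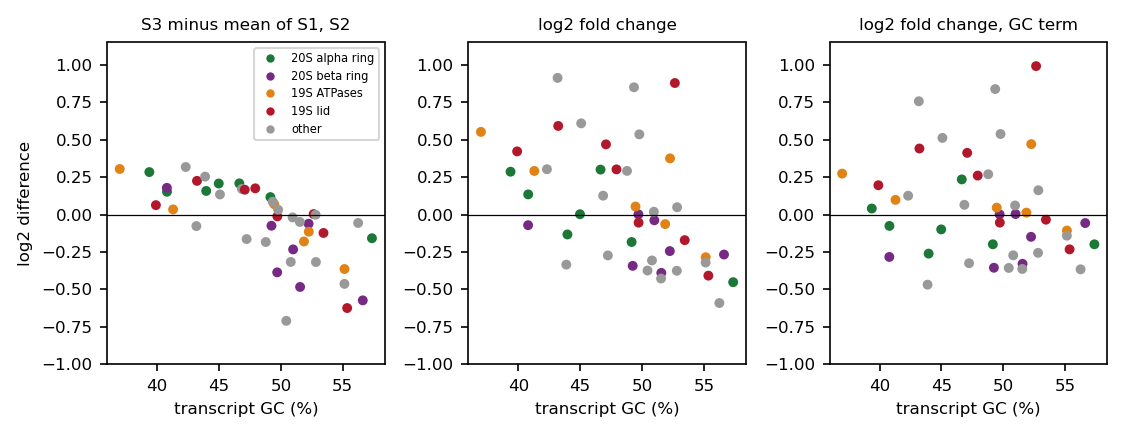
Log2 difference against transcript GC content (%) for the tested proteasome genes other than Psmc3ip, coloured by role. The left panel plots senescent replicate 3 minus the mean of replicates 1 and 2, the middle panel the log2 fold change, and the right panel the log2 fold change with the GC term. The downward trend of the left panel, a Spearman correlation of -0.74 over 46 genes, is also seen in the middle panel.

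The immunoproteasome subunits Psmb8, Psmb9 and Psmb10 replace Psmb5, Psmb6 and Psmb7 in the core of immune cells and of cells exposed to interferon. Psmb8 was at 0.962% of the Psmb5 level per length ± 0.021 in control and 2.11% ± 0.246 in senescent cells, a log2 difference of 1.13. The 3 senescent values (1.89%, 2.06% and 2.38%) were all above the control values (0.985%, 0.945% and 0.957%), and the two-sided exact permutation test gave p = 0.1, the smallest that 3 against 3 allows (0.15 after adjustment over the 3 ratios). Psmb10 moved the other way against Psmb7, from 7.04% ± 0.695 to 4.62% ± 1.65 (log2 difference -0.68, exact p = 0.1, adjusted p = 0.15), and the log2 difference was -0.35 without senescent replicate 3. Psmb9 stood at 0.809% ± 0.083 and 0.882% ± 0.066 of Psmb6 (exact p = 0.4). By edgeR, Psmb8 was higher (2.26 CPM to 4.06 CPM, log2 fold change 0.84, adjusted p = 6.99e-04), Psmb10 lower (9.59 CPM to 5.88 CPM, -0.71, adjusted p = 0.0174, -0.47 without senescent replicate 3, and not called without control replicate 2 or 3) and Psmb9 not called (-0.29, adjusted p = 0.171). The constitutive counterparts were many times higher in every library.

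The genes around the proteasome were counted in 3 further lists, to be read beside the 36.2% of all genes tested that were higher and the 34.1% that were lower. Of 9 genes of the complex or its assembly that lack a Psm name, 4 were higher and 1 lower. Pomp, which completes the core, was at 87.0, 86.2 and 84.0 CPM and at 95.5, 95.04 and 97.2 CPM (log2 fold change 0.16, adjusted p = 0.0205), a call that was lost without any 1 of the control replicates or without senescent replicate 1 (largest adjusted p = 0.105). The deubiquitinase Usp14 was higher (0.37, adjusted p = 0.00457, and 0.12 with the GC term), and the ubiquitin receptor Adrm1 was not called (-0.08). Named after their values were seen, Akirin2, which brings proteasomes into the nucleus, and Txnl1, a 19S-bound thioredoxin, had log2 fold changes of 0.79 and 0.62, and Shfm1, the small lid subunit also called Sem1, was at -0.60, each called by edgeR, and Txnl1 was 0.37 with the GC term.

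Among 12 genes of NRF1 and NRF2 control, 6 were higher and 4 lower. Nfe2l1, which encodes NRF1, rose from 244, 251 and 255 CPM to 443, 463 and 374 CPM (log2 fold change 0.77 ± 0.08 SE, adjusted p = 8.68e-05). Nfe2l2, which encodes NRF2, rose from 144, 143 and 144 CPM to 199, 204 and 227 CPM (log2 fold change 0.55 ± 0.06 SE, adjusted p = 1.34e-04). Both were above control in all 3 senescent libraries. Ddi2, the protease that activates NRF1, was lower (-0.22, adjusted p = 0.0058). The small Maf gene Maff, named after its values were seen, went from 6.10 CPM ± 0.500 to 126 CPM ± 3.70 (log2 fold change 4.37, adjusted p = 1.25e-08), and its family members Mafk and Mafg were at 1.52 and 0.51.

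Of 12 genes of the p97 unfoldase and the shuttle factors, 6 were higher and 1 lower. Vcp, which encodes p97, was at 525, 573 and 553 CPM and at 527, 523 and 635 CPM (log2 fold change 0.03, 95% interval -0.17 to 0.23), while its cofactors Ufd1l and Nploc4, named after their values were seen, were at 0.69 and 0.46. The polyubiquitin gene Ubb was lower (335 CPM to 268 CPM, log2 fold change -0.32, adjusted p = 0.039). Its log2 fold change was -0.19 without senescent replicate 3 and -0.18 with the GC term, and the call was lost without any 1 of the control replicates or without senescent replicate 2 (largest adjusted p = 0.117).

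**Figure D5:**
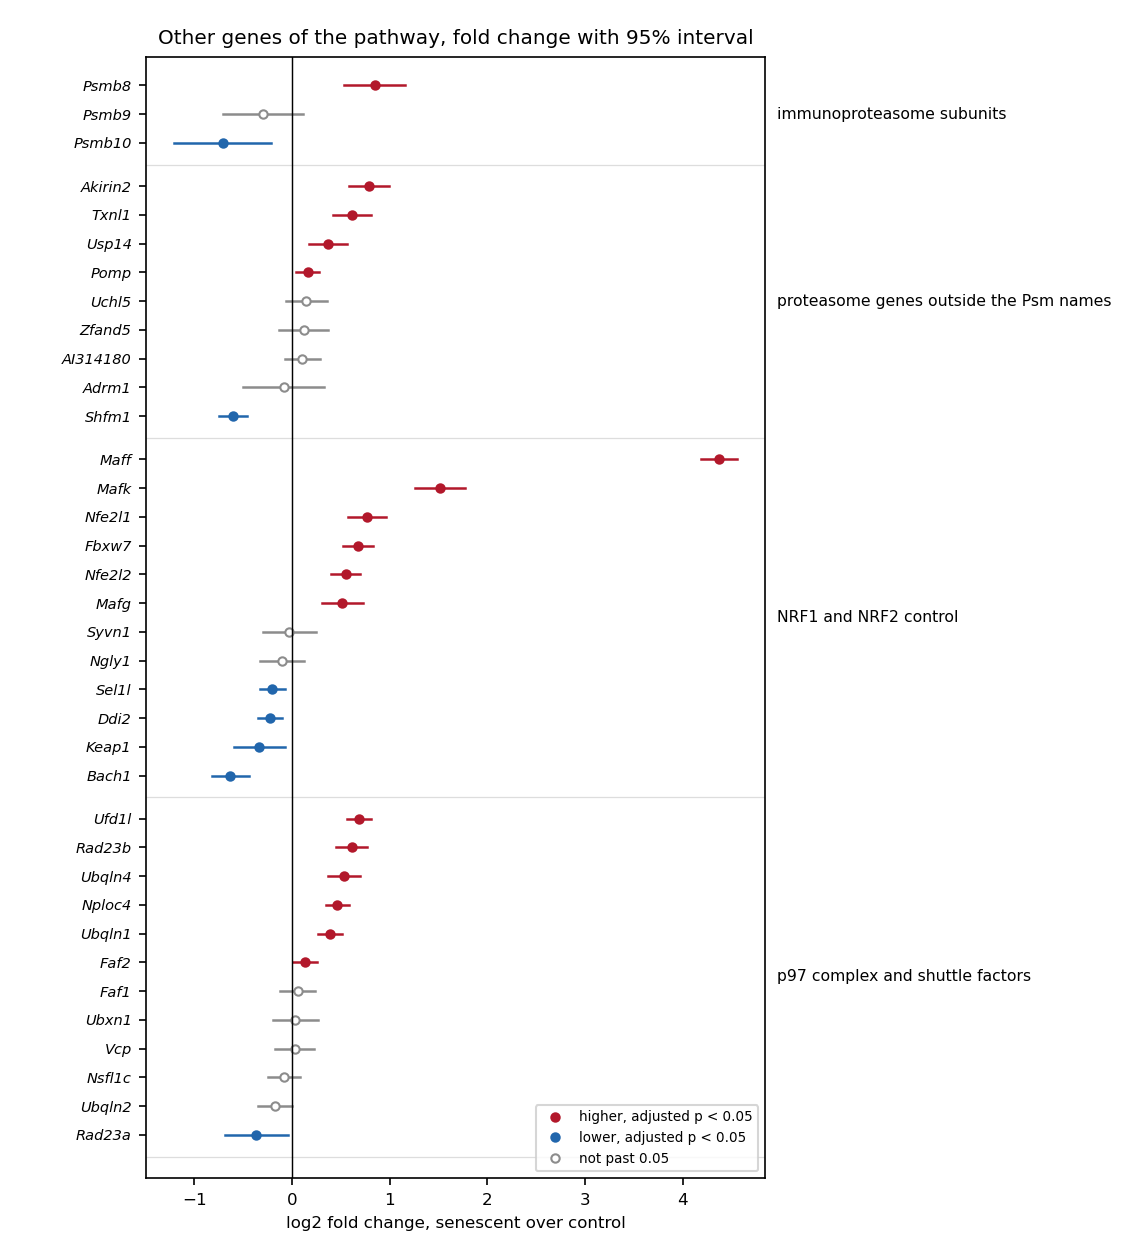
Log2 fold change, senescent over control, of the genes of 4 lists around the proteasome (horizontal axis), with 95% confidence intervals of edgeR's quasi-likelihood fit as bars and filled points for an adjusted p under 0.05. Of 36 genes 17 were higher and 7 lower, beside 36.2% and 34.1% of all genes tested, with Maff at 4.37 the farthest to the right.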

How the data were processed

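Polyadenylated RNA was sequenced in 6 libraries from a stranded kit (200 ng of RNA each). The authors ran MAPRSeq, in which STAR aligned both reads of a pair to mm10 and Subread counted them per gene, and deposited raw counts together with gene lengths. The strand setting of the counting and the handling of reads mapping to several places are not given in the sources used here. Of the 47 genes 13 share annotated exon bases with another counted gene, 4 of them on the same strand. These 4 are Psmb5 (12.5% of its length, with Mir686), Psmg3 (9.7%, Gm26938), Psme2b (4.9%, 9930111J21Rik1) and Psmd1 (4.1%, Gm21972). The part of these overlaps in the counts was not tested. Genes were filtered with filterByExpr, scaled by TMM and tested by edgeR's two-sided quasi-likelihood test (edgeR 4.0.16, limma 3.58.1, R 4.3.3) with robust fitting and group as the only term, adjusted by Benjamini-Hochberg over 17589 genes. The 47 genes, the lists and the tests were chosen with earlier results of these data known. Every library's value is given for the genes with the highest and the lowest fold change of each role group, the catalytic subunits, Psmd2, Psmd4, Psmd14, the activators, Psmf1, Psma8 and Psmc3ip. The other Psm genes are named with fold changes, and pathway genes outside this rule are marked as named after their values were seen. Transcript GC content came from the longest GENCODE vM21 transcript of GRCm38, the assembly of mm10. The GC term is a lowess curve (span 0.3) of each library's deviation against GC content, chosen after seeing the data. In simulated data with 200 changed genes the test recovered 16 of 50 genes at an absolute log2 fold change of 0.4. It recovered 46 of 50 at 0.6 and 50 of 50 at 1, with 8 false calls among 17247 genes tested. The simulation changed far fewer genes than were called here, gave all genes the same dispersion and had no GC departure of a library. These rates therefore do not give the sensitivity or the error of the test in the real data. The symbols Ecpas, Sem1 and Ufd1 are listed as AI314180, Shfm1 and Ufd1l. Some genes around the proteasome are not reported here. Alternatives were RLE scaling, library size alone, other filters, edgeR's exact test, DESeq2 1.42.0, protein-coding genes alone, a replicate term and each library left out.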

Additional observations from a re-analysis of the deposited data

How the results depend on the processing

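The number of proteasome genes called higher stayed between 14 and 19 under all alternatives. The number called lower was 9 with scaling by library size alone and 9 with the filter on a minimum of 10 counts in each library, and the cause was not tested. It was 9 to 17 with each library left out, lowest without control replicate 2 and highest without senescent replicate 3. The number above 2-fold was 1 to 2, and it was 2 without control replicate 2, where Psma8 passed beside Psmc3ip. The median log2 fold change, -0.019 as reported, was 0.059 with library size alone (which moved the median of all genes to 0.086), 0.030 with the minimum of 10 counts, and -0.055 to 0.017 with each library left out, so its sign was not stable. The correlations of same-numbered deviations were -0.431, 0.327 and -0.277. They cannot decide whether the replicate numbers pair the samples, because they are few and senescent replicate 3 stood apart from its group. With a replicate block 15 genes were higher and 12 lower, beside 33.9% and 32.2% of all genes. Psma5, Psmd9, Psmd10 and Psmd13 were then no longer called and Psmd3 was, the 2-fold count was 1 and the median was -0.025. The log2 ratios of Psmb8, Psmb9 and Psmb10 to their counterparts (1.13, 0.13 and -0.68) cannot change under this block, since each replicate number is in both groups.

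Of 688 values of 43 named genes under 16 alternatives, 626 kept their direction and their side of the threshold, 33 lost the call, 15 gained it and 14 changed sign, and for 30 genes every value kept both. The sign changes were in genes that were not called with all 6 libraries and no further term. Psmb3 was -0.0066 with no filter, -0.016 with protein-coding genes alone, -0.0072 with the replicate block, -0.0075 with the GC term and replicate block, and -0.058 to 0.13 with each library left out. Psmb7 was 0.0063 with library size alone. Leaving out each library gave -0.0036 to 0.15 for Psmd4, -0.061 to 0.085 for Vcp and -0.21 to 0.12 for Adrm1, and Adrm1 was 0.094 with the GC term and 0.086 with the GC term and replicate block.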
